A study of Homo sapiens with 9 samples.

Results

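The genes described here encode the subunits of AMPA and NMDA receptors, the ionotropic glutamate receptors that carry most fast excitatory transmission in the central nervous system. The 10 members are GRIA1, GRIA2, GRIA3, GRIA4, GRIN1, GRIN2A, GRIN2B, GRIN2C, GRIN2D and GRIN3A, found by gene symbol among the 31589 genes of the deposited tables, and all 10 are among the 26871 genes present in every table. GRIN2B stands in the list as a gene among those most raised by VPA, so the list was selected on the measured difference between VPA and vehicle, which is given below as a description without a p-value.

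Messenger RNA was measured by bulk RNA sequencing in spinal cord organoids (SCOs), 3-dimensional cultures of neural tube-like tissue grown from WTC, an established human induced pluripotent stem cell line. There were 9 libraries, 3 each from SCOs given vehicle (labelled FGF), valproic acid (VPA, an anti-seizure drug that inhibits histone deacetylases) or VPA with Rapamycin, an inhibitor of the kinase mTOR (VPA+Rapamycin). All groups shared the basic FGF medium, the labels give a genotype of WT and an exposure of 96 hours (the study's text describes a shorter one for VPA), and per the study's methods the cells were clones carrying a reporter cassette at SOX10, with several organoids pooled for each library. The sample names C4, C5 and C6 recur in each condition with the replicate numbers, and the study describes a library per clone. Its clones have other names, and the labels do not say what C4, C5 and C6 stand for. Because the names recur, same-numbered libraries were taken to share a clone, which is an assumption. The result of a fit with the replicate number as a block is given where it changes a call. The p-values measure the spread between these libraries, which may be technical in part. The comparisons ask how VPA altered the transcriptome of the organoids and whether Rapamycin altered the response.

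AMPA receptors are tetramers of GRIA subunits. GRIA2 governs their permeability to calcium, because its transcript is edited by the enzyme ADARB1 so that the channel admits little calcium. NMDA receptors need the obligatory subunit GRIN1 together with GRIN2 or GRIN3 subunits: GRIN2B and GRIN2D prevail in the embryonic nervous system, GRIN2A and GRIN2C rise later, and GRIN3A lowers calcium flow through the receptor. REST, a repressor that recruits histone deacetylases, binds a motif called RE1 near many neuronal genes and is known to act on several receptor subunit genes.

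Promoter sequence was examined for motifs because REST, RNA editing enzymes and histone deacetylases were among the genes followed here. RefSeq windows on GRCh38.p14, each from 250 bases before to 50 bases after a transcription start, covered 7 of the 10 members with 14 windows; GRIA3, GRIN1 and GRIN2C had none. Both strands were searched for the RE1 parts TTCAGCACC and GGACAGCGC placed 2 bases apart. This arrangement was found in 2 of 35116 windows (0.00570%), and 1 of those 2 belongs to GRIA2. Taken alone, TTCAGCACC was found in 0.376% and GGACAGCGC in 0.581% of all windows, and among the members each was found only in GRIA2. The shorter TTCAGCAC, which is TTCAGCACC without its last base, was found in 0.963% of all windows, and in GRIA2 and GRIN2B among the members. The windows of GRIN2B thus held neither whole part. The first 2 sequences below show these matches in capitals with their surroundings, and the last shows the 250 bases upstream of a start of GRIN2B, the member that named the list, with the GC box GGGCGG (here read on the other strand as CCGCCC) in capitals. A GC box was found in 45.0% of all windows, and in 6 of the 14 windows of the members, which belong to GRIA2, GRIN2A, GRIN2B and GRIN2D.
GRIA2, chr4:157220384-157220413, minus strand, centred 220 bases before a start: ggcctTTCAGCACCGAGGACAGCGCctcgc
GRIN2B, chr12:13980819-13980848, minus strand, centred 12 bases after a start: atcagaacccaTTCAGCACaagcccggggt
GRIN2B, chr12:13982135-13982384, minus strand, upstream of a start: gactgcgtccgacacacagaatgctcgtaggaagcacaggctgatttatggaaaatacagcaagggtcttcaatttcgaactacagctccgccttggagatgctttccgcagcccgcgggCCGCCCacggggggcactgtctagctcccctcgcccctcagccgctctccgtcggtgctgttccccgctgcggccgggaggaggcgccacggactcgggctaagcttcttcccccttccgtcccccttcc
The AP-1 site TGACTCA (4.95% of all windows) and the cyclic AMP response element TGACGTCA (1.85%) were found in 0 windows of the members. These matches describe letters in a window, and no binding was measured.

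The libraries held between 15290299 and 17417338 counted reads, so that 3 reads, the limit that a count of 0 allows, correspond to between 0.172 and 0.196 CPM (reads of a gene scaled to a library of 1000000). On the second principal component the vehicle libraries were spread from 41.2 (replicate 1) through 11.8 (replicate 2) to -44.1 (replicate 3). The VPA and VPA+Rapamycin libraries lay between -14.0 and 3.82. Vehicle replicate 3 held 307 reads of the neural crest gene TFAP2B against 2 in each of vehicle replicates 1 and 2. It held 578 reads of the mesenchymal gene LUM against 82 and 67, and 63 of TWIST1 against 0 and 1. COL1A1 and PDGFRB, also mesenchymal, had their highest vehicle reads in replicate 1 (3376 and 363). Vehicle replicate 3 also had the highest reads of GRIA1, GRIA2, GRIA3, GRIA4, GRIN2A, GRIN2B and GRIN3A among the vehicle libraries. Values that move by over 1.5 times without that library are given both ways for members whose difference is named. Neurons were present in all libraries by their markers: the summed CPM of 12 neuronal genes was 1824, 2421 and 3263 in vehicle, 1831, 1685 and 1744 with VPA and 1840, 1798 and 2004 with VPA+Rapamycin. Of the markers of astrocytes and the oligodendrocyte lineage, AQP4 had 0 to 5 reads and GFAP 5 to 25 in a library, CSPG4 had 41 to 150, MBP 66 to 124 and SLC1A2 261 to 981. In bulk samples, fewer cells of a type and less RNA per cell cannot be told apart.

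GRIN2B was the member with the largest difference from vehicle in the direction of a rise. The 3 vehicle libraries held 41, 43 and 48 reads of GRIN2B, the VPA libraries 342, 323 and 376, and the VPA+Rapamycin libraries 327, 267 and 325. Every library exposed to VPA, with or without Rapamycin, was far above every vehicle library, and the groups were tight compared with the gap between them. Scaled to depth, the mean and SD of the 3 libraries were 2.74 ± 0.283 CPM for vehicle, 20.6 ± 0.728 for VPA and 18.5 ± 2.60 for VPA+Rapamycin. The fold of VPA over vehicle was 7.43, a log2 difference of 2.89 (SE 0.18). GRIN2B ranked 12 by p among the 8636 genes with a higher level in VPA of 17360 tested. The rank restates how GRIN2B was chosen, and nothing is read from it.

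Rapamycin left the level of GRIN2B near that of VPA. The log2 difference between VPA+Rapamycin and VPA was -0.15 (SE 0.12) and the libraries of the 2 groups overlapped. Against vehicle, VPA+Rapamycin was 6.70-fold higher, with a log2 difference of 2.74 (SE 0.20). Leaving out each library in turn moved the log2 difference of VPA from vehicle only between 2.81 and 2.96. No p-value is given for GRIN2B in any comparison, since each uses the VPA or vehicle libraries that placed it in the list. GRIN2B spans chr12:13437942-13981957 on the minus strand (GRCh38) with 30941 bases of exons, and 546 and 263 of these overlap 2 genes on the other strand.

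The other subunit that is abundant in embryonic tissue, GRIN2D, moved the other way. Vehicle libraries held 601, 378 and 417 reads of GRIN2D, VPA libraries 299, 250 and 303, and VPA+Rapamycin libraries 288, 387 and 343. After scaling, all VPA libraries lay below all vehicle libraries, and vehicle replicate 1 was the highest of the 9. The mean was 28.8 CPM for vehicle (SD 5.91, n = 3), 16.8 for VPA (SD 1.26) and 20.4 for VPA+Rapamycin (SD 2.89). The log2 difference of VPA from vehicle was -0.78 (SE 0.16), and it was -0.60 without vehicle replicate 1. VPA+Rapamycin had a log2 difference of -0.50 (SE 0.17) from vehicle, with an adjusted p of 0.0666 in edgeR that missed the threshold of 0.05. It passed in 5 of 12 alternatives, over which the adjusted p ran from 0.0277 to 0.243. Among those 5 were the fit without vehicle replicate 3 (adjusted p = 0.0277) and the fit with the replicate block (0.0499). Without vehicle replicate 1 the log2 difference of VPA+Rapamycin from vehicle was -0.32.

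GRIN1 and GRIN2C were scarce. GRIN1, without which no NMDA receptor forms, had 21, 8 and 15 reads in vehicle, 26, 23 and 39 with VPA and 23, 52 and 26 with VPA+Rapamycin. Its log2 difference was 0.92 (SE 0.43) in VPA and 1.14 (SE 0.46) in VPA+Rapamycin against vehicle, the latter with an adjusted p of 0.107 in edgeR. GRIN2C, a subunit of the mature cerebellum, had 8 to 33 reads in any library. GRIN2A, the subunit that joins receptors after birth, had 91 to 132 reads in all 9 libraries and even levels, at 6.58 ± 1.43, 6.43 ± 0.783 and 6.55 ± 0.591 CPM in vehicle, VPA and VPA+Rapamycin (SD, n = 3 each).

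GRIN3A was lowest in VPA. Its reads were 30, 35 and 51 in vehicle, 0, 6 and 6 in VPA, and 15, 8 and 11 in VPA+Rapamycin. The 3 groups did not overlap, with VPA+Rapamycin between the other two, but the 6 reads of VPA replicates 2 and 3 and the 8 reads of VPA+Rapamycin replicate 2 are only a few reads apart. The log2 difference of VPA from vehicle was -3.32 (SE 0.65), a value that depends on how a count of 0 is treated. GRIN3A was below the filter on low counts in VPA+Rapamycin against VPA and was not tested there. Against vehicle it fell with VPA+Rapamycin, with a log2 difference of -1.82 (SE 0.42, adjusted p = 0.0141 in edgeR). This call was lost without VPA+Rapamycin replicate 2 (adjusted p = 0.0656) and without VPA+Rapamycin replicate 3 (adjusted p = 0.0530).

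Among AMPA receptor subunits, GRIA2 differed most between conditions. Vehicle libraries held 437, 626 and 992 reads of GRIA2, VPA libraries 236, 180 and 240, and VPA+Rapamycin libraries 292, 370 and 402. None of the 3 groups overlapped, VPA+Rapamycin lay between the other two, and vehicle replicate 3 was the highest. The mean was 42.8 CPM for vehicle (SD 17.8, n = 3), 12.9 for VPA (SD 1.61) and 21.4 for VPA+Rapamycin (SD 3.99). The fold of vehicle over VPA was 3.33, a log2 difference for VPA of -1.74 (SE 0.26), and it was -1.38 without vehicle replicate 3.

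GRIA2 rose 1.66-fold in VPA+Rapamycin against VPA, a log2 difference of 0.73 (SE 0.15, adjusted p = 0.00616 in edgeR). That comparison shares the VPA libraries with the comparison that chose the members. The call held in 11 of 12 alternatives, with adjusted p between 3.90e-05 and 0.225, and the highest of these came from a fit of all 9 libraries together, in which vehicle enters the estimate of spread. Against vehicle, GRIA2 fell by 1.01 on the log2 scale with VPA+Rapamycin (SE 0.27, adjusted p = 0.0237 in edgeR), and the log2 difference was -0.65 without vehicle replicate 3. The second call was lost without vehicle replicate 2 (adjusted p = 0.0594), VPA+Rapamycin replicate 1 (0.112) or VPA+Rapamycin replicate 2 (0.0807).

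**Figure D1:**
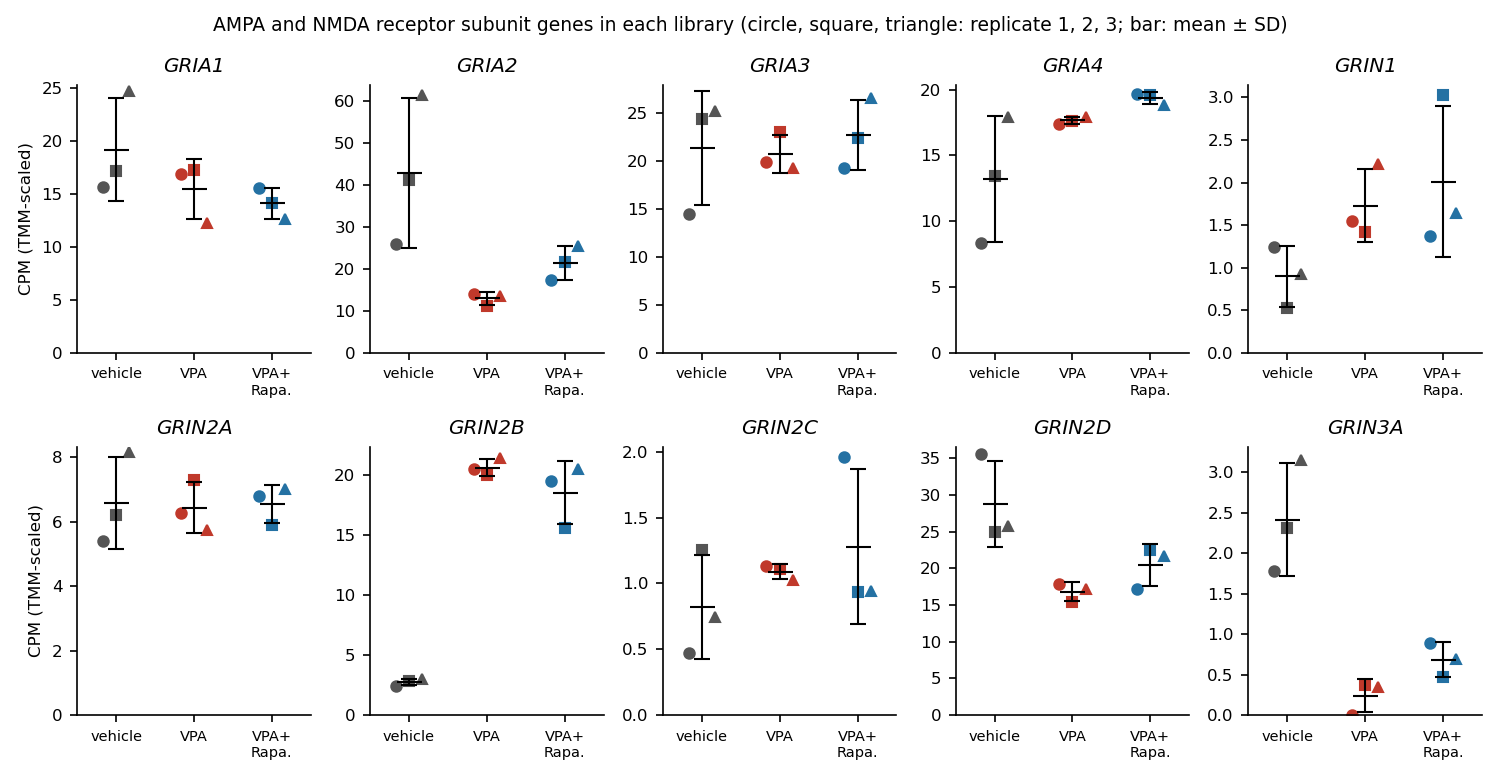
Level of each subunit gene in each of the 9 libraries, in CPM scaled with TMM factors on a linear axis from 0, with points for libraries and black bars for the mean and SD of 3 libraries. GRIN2B sits near 2.74 CPM in vehicle and near 20.6 and 18.5 in both VPA conditions, and GRIA2 falls from 42.8 to 12.9 and lies at 21.4 with Rapamycin.

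The other AMPA receptor subunits differed less. GRIA4, which forms rapidly gating channels, had 141, 204 and 289 reads in vehicle, 291, 286 and 316 with VPA and 331, 336 and 299 with VPA+Rapamycin. The vehicle libraries were spread widely and the 6 others lay close together. Its log2 difference was 0.41 (SE 0.23) in VPA and 0.54 (SE 0.23) in VPA+Rapamycin against vehicle. The latter had an adjusted p of 0.128 in edgeR, which became 0.0386 with the replicate block and 0.00866 without vehicle replicate 3. Without vehicle replicate 3 the log2 differences of GRIA4 were 0.70 for VPA and 0.83 for VPA+Rapamycin. Without vehicle replicate 1 they were 0.16 and 0.29. GRIA1, a subunit inserted into synapses during plasticity, had 261 to 399 reads in vehicle, 215 to 282 with VPA and 201 to 262 with VPA+Rapamycin. Its log2 differences were -0.32 (SE 0.21) for VPA and -0.45 (SE 0.19) for VPA+Rapamycin against vehicle, and the latter did not pass (adjusted p = 0.129 in edgeR) except without vehicle replicate 1 (0.0411). Without vehicle replicate 3 they were -0.09 and -0.22. GRIA3 had 245 to 421 reads in all libraries and log2 differences of -0.06 (SE 0.20) for VPA against vehicle and 0.14 (SE 0.13) for VPA+Rapamycin against VPA, the former turning to 0.09 without vehicle replicate 3.

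Counted over the list, 1 member was higher (GRIN2B) and 3 were lower (GRIA2, GRIN2D and GRIN3A) in VPA against vehicle at an adjusted p of at most 0.05, where 32.1% of all genes passed in either direction; that comparison chose the list, and nothing is read from the count. In VPA+Rapamycin against VPA, 1 of 9 tested members passed, GRIA2, against 6.74% of all genes. GRIN2B is among the 9 and was placed in the list by its level in the same VPA libraries, and nothing is read from its part in the count. Against vehicle, 3 of 10 passed in VPA+Rapamycin, with GRIN2B higher and GRIA2 and GRIN3A lower, where 19.0% of all genes passed; GRIN2B was placed in the list by its level over the same vehicle libraries, and nothing is read from its part in the count. The 3 passing there became 5 with the replicate block, 5 without vehicle replicate 3 and 1 without VPA+Rapamycin replicate 2. The median log2 difference of the members was -0.05, 0.14 and 0.03 in the 3 comparisons, next to -0.003, 0.004 and 0.002 over all genes tested. Libraries of the compared groups did not overlap for 5 members (47.5% of all genes), 3 members (25.5%) and 7 members (38.5%).

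**Figure D2:**
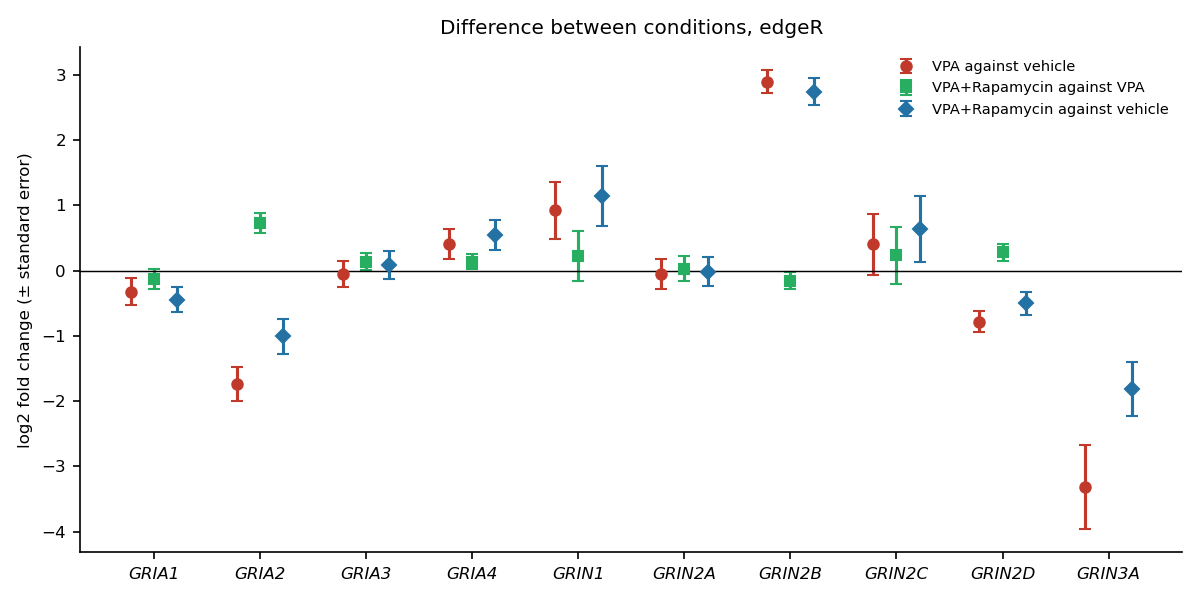
Log2 fold change with its standard error from edgeR for each subunit gene in the 3 comparisons of 3 libraries with 3. GRIN2B lies at 2.89 and 2.74 against vehicle and at -0.15 between VPA+Rapamycin and VPA, and GRIN3A has no value in the last of these because it was below the filter on low counts.

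Compared with each other per base of exon, in RPKM (CPM for each 1000 bases of exon), GRIN2B, GRIA2 and GRIN3A changed place between the conditions. In vehicle, GRIN2D (5.65 ± 1.16) and GRIA2 (4.79 ± 1.99) led, followed by GRIA3 (3.29 ± 0.918), GRIA1 (2.51 ± 0.635) and GRIA4 (1.31 ± 0.474). The ranges of neighbours from GRIN2D down to GRIA1 overlapped, and GRIA4 was clear of both neighbours. GRIN2B was the lowest of the 10 in vehicle at 0.0886 ± 0.00915 RPKM, though its range overlapped that of GRIN2C, the next above it.

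In VPA the order was GRIN2D (3.31 ± 0.248 RPKM), GRIA3 (3.19 ± 0.304), GRIA1 (2.02 ± 0.367), GRIA4 (1.75 ± 0.0284) and GRIA2 (1.45 ± 0.180), and GRIN2B stood next at 0.665 ± 0.0235, above GRIN2A without overlap. GRIN2D and GRIA3 overlapped, as did GRIA1 and GRIA4. In VPA+Rapamycin GRIA2 was at 2.40 ± 0.446 RPKM, between GRIA3 and GRIA4, overlapping GRIA4 and not GRIA3. GRIN2B was at 0.598 ± 0.0841 RPKM there, again the sixth of the list. GRIN3A was the seventh in vehicle at 0.297 ± 0.0858 RPKM, above GRIN1 without overlap, and the lowest of the 10 in VPA (0.0292 ± 0.0253) and in VPA+Rapamycin (0.0842 ± 0.0263), where its range overlapped that of GRIN2C. All values are means with SD of 3 libraries.

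The make-up of each family shifted accordingly. GRIA2 supplied 36.1%, 38.6% and 43.6% of AMPA subunit RNA per exon length in the vehicle libraries, 18.4%, 14.1% and 19.4% in VPA and 21.8%, 25.0% and 27.1% in VPA+Rapamycin. The ranges of the 3 conditions did not overlap, and vehicle stayed above the others without vehicle replicate 3. The share of GRIA4 was 10.9 ± 0.500% with vehicle, 20.9 ± 1.51% with VPA and 20.0 ± 2.02% with VPA+Rapamycin, and that of GRIA3 was 24.7% to 31.4%, 35.8% to 40.3% and 33.4% to 39.1%. Without GRIA2, AMPA receptors pass calcium, but protein and editing were not measured. The summed level of the 4 genes was 11.9 ± 3.88 RPKM for vehicle, 8.41 ± 0.479 for VPA and 9.67 ± 0.773 for VPA+Rapamycin (mean and SD of 3 libraries).

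GRIN2B supplied 1.46 ± 0.355% of GRIN2 subunit RNA per exon length in the vehicle group, 14.8 ± 0.630% with VPA and 11.7 ± 2.17% with VPA+Rapamycin (mean and SD of 3 libraries). GRIN2D remained the most abundant of the 4 in every library, at 90.4 ± 3.05%, 73.7 ± 1.93% and 77.6 ± 4.73%. Because the annotated exons of GRIN2B are 30941 bases long, against 5093 for GRIN2D, the shares depend on the length used. Taken from reads alone, GRIN2B supplied 7.16%, 45.8% and 39.5%, and GRIN2D 73.5%, 37.4% and 43.7%. An exact test of 3 libraries against 3 cannot give a two-sided p under 0.1, and the shares are given without a test.

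**Figure D3:**
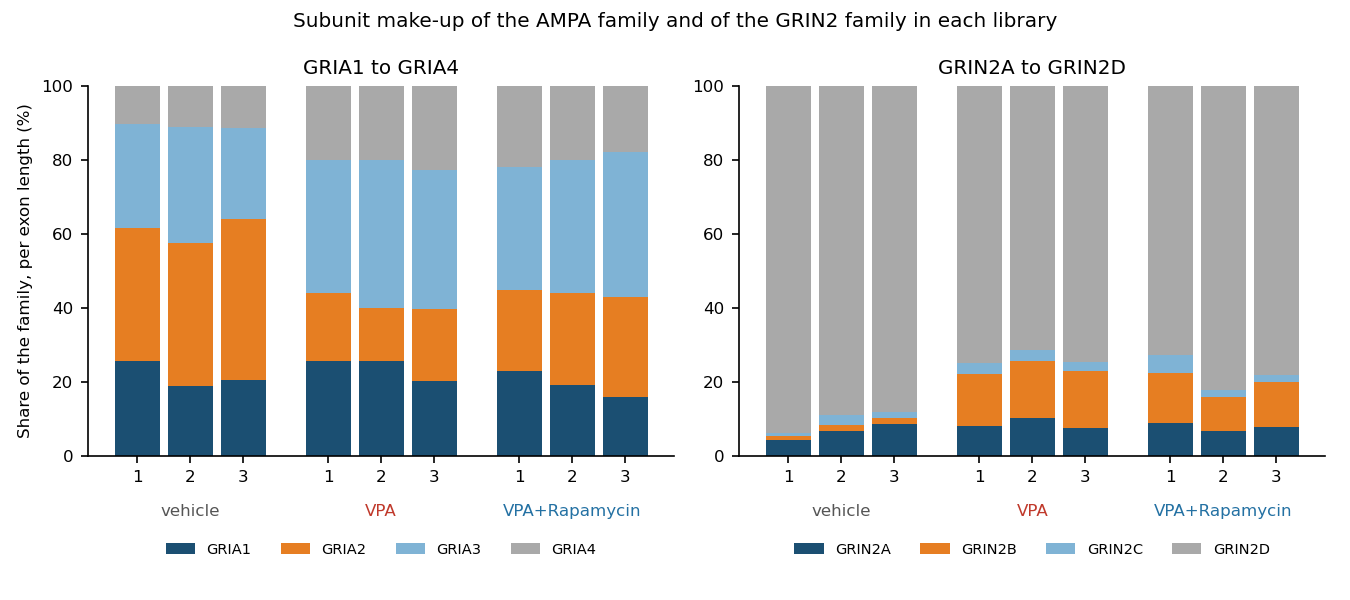
Share of each subunit among GRIA1 to GRIA4 (left) and among GRIN2A to GRIN2D (right), in percent of the family's reads per exon length, with a stacked bar for each of the 9 libraries. The GRIA2 segment narrows from a mean of 39.4% in vehicle to 17.3% in VPA and 24.6% in VPA+Rapamycin, and the GRIN2B segment widens from 1.46% to 14.8% and 11.7%.

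Markers of neurons moved along with part of these results. Of 12 neuronal genes, 6 fell in VPA against vehicle (TUBB3, MAP2, DCX, ELAVL3, ELAVL4 and NEFM) and 0 rose (also 0 in DESeq2 or at an unadjusted p under 0.05), 3 rose in VPA+Rapamycin against VPA (DCX, ELAVL4 and NEFM), and 3 fell in VPA+Rapamycin against vehicle (STMN2, ELAVL3 and ELAVL4), in edgeR at an adjusted p of at most 0.05. With the replicate block, 6 fell in the last comparison. Their median log2 difference was -0.52, 0.14 and -0.46. Relative to 1000 CPM of the 12 summed neuronal genes, GRIA2 was at 14.2 to 18.8 in vehicle libraries, 6.59 to 7.82 in those of VPA and 9.44 to 12.6 in those of VPA+Rapamycin. GRIN2B was at 1.33, 1.17 and 0.910 in vehicle, 11.2, 11.8 and 12.2 with VPA and 10.6, 8.65 and 10.2 with VPA+Rapamycin on the same scale. On this scale the groups of GRIA2 still did not overlap, and GRIN2D in VPA (9.75, 9.15 and 9.87) overlapped vehicle (19.5, 10.3 and 7.91).

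Markers of other cells were followed as well. Of 7 tested mesenchymal genes, 2 rose in VPA against vehicle (COL1A1 and COL1A2) and 6 fell in VPA+Rapamycin against VPA, with summed CPM of 148 to 313 in vehicle, 576 to 732 with VPA and 256 to 381 with VPA+Rapamycin. With the replicate block, 2 of the mesenchymal genes rose in VPA+Rapamycin against vehicle (COL1A1 and COL1A2). Of 7 tested genes of neural crest and Schwann cells, 3 fell and 2 rose in VPA against vehicle and 1 fell and 2 rose in VPA+Rapamycin against VPA, with summed CPM of 400 to 499, 395 to 423 and 390 to 425. Of 8 progenitor genes, 1 rose and 2 fell in VPA against vehicle, and their summed CPM was 1919 to 2200, 2183 to 2413 and 1982 to 2202. Astrocyte and oligodendrocyte markers had 0 of 6 pass in VPA against vehicle and in VPA+Rapamycin against VPA (0 in DESeq2, 1 higher at an unadjusted p under 0.05 in each) and 1 fall in VPA+Rapamycin against vehicle, with summed CPM of 33.6 to 56.7, 54.8 to 67.4 and 58.2 to 59.6. With the replicate block SLC1A2 rose in VPA (adjusted p = 0.00509 in edgeR) and in VPA+Rapamycin (0.0249) against vehicle. The part of cell composition in the differences of the receptor genes was not tested.

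The genes whose pattern over the 9 libraries was most like that of GRIN2B were PLEKHH2 (Pearson's r = 0.996), AMIGO2 (0.995), PRSS35 (0.995), GABRQ (0.994) and SUSD4 (0.994), out of 16733 genes searched. PLEKHH2 held 106, 110 and 109 reads in vehicle, 458, 395 and 450 with VPA and 362, 358 and 396 with VPA+Rapamycin, and GABRQ, a subunit of the GABA type A receptor, 34 to 40, 164 to 221 and 156 to 206. For GRIA2 the most alike were RBM26 (r = 0.990), CLASP2 (0.988), ZNF518A (0.987), PRPF39 (0.985) and CTBP1-AS (0.983). CLASP2, a microtubule-binding protein, had 2754, 3128 and 4274 reads in vehicle, 2230, 1952 and 2255 with VPA and 2442, 2528 and 2751 with VPA+Rapamycin. These correlations describe 9 libraries that fall into 3 conditions, and the genes share the libraries and their depth.

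The wider glutamate system comprised 73 further genes in 6 lists. In VPA against vehicle 15 of 64 tested rose (16.4% of all genes) and 14 fell (15.7%). In VPA+Rapamycin against VPA 4 of 63 rose (3.01%) and 3 fell (3.73%), and in VPA+Rapamycin against vehicle 12 of 64 rose (9.87%) and 9 fell (9.12%). The 7 that passed between VPA+Rapamycin and VPA became 3 without VPA replicate 2, 4 without VPA replicate 3 or VPA+Rapamycin replicate 3, and 1 in a fit of all 9 libraries. The median log2 difference of the tested genes was -0.04, -0.02 and -0.02.

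Among the other ionotropic receptors, 4 of 8 tested rose in VPA against vehicle and 1 fell, and 4 rose and 1 fell in VPA+Rapamycin against vehicle. Between VPA+Rapamycin and VPA, 0 of 8 passed in edgeR and in DESeq2, and 0 had an unadjusted p under 0.05. GRIK3, a kainate receptor subunit, went from 794, 701 and 732 reads in vehicle to 1674, 1724 and 1863 with VPA and 1600, 1741 and 1987 with VPA+Rapamycin. Both treated groups were well clear of vehicle and overlapped each other; the log2 difference of VPA+Rapamycin from vehicle was 1.21 (SE 0.13, adjusted p = 0.000274 in edgeR). The others that rose in both comparisons with vehicle were GRIK4, GRID1 and GRIN3B, the companion of GRIN3A, which had 103 to 187 reads in vehicle, 263 to 281 with VPA and 241 to 290 with VPA+Rapamycin. GRIK5, a kainate receptor subunit that needs a partner, fell in both. With the replicate block, GRIK1 also fell in VPA (adjusted p = 0.0378 in edgeR) and GRIK2 rose in VPA+Rapamycin (0.0181) against vehicle.

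Among metabotropic receptors, which signal through G proteins, 5 of 8 were tested. GRM3 and GRM8 rose and GRM2 and GRM4 fell in both comparisons with vehicle, and 0 of 5 passed between VPA+Rapamycin and VPA in edgeR and in DESeq2, with 0 at an unadjusted p under 0.05. GRM2 had 668, 628 and 797 reads in vehicle, 387, 246 and 433 with VPA and 387, 365 and 288 with VPA+Rapamycin, a fall of VPA+Rapamycin from vehicle by 1.07 on the log2 scale (SE 0.14, adjusted p = 0.00109 in edgeR).

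Auxiliary proteins ride with AMPA receptors and set their traffic and gating. Of 14 tested, 4 rose (CACNG8, CNIH2, SHISA7 and SHISA9) and 4 fell (CACNG2, FRRS1L, CPT1C and PICK1) in VPA against vehicle, the call of CNIH2 being lost with the replicate block (adjusted p = 0.110 in edgeR). SHISA7 had 129, 113 and 155 reads in vehicle, 357, 394 and 468 with VPA and 458, 425 and 439 with VPA+Rapamycin. FRRS1L, which takes part in AMPA receptor assembly, had 1509, 1592 and 2167 reads in vehicle, 1088, 1155 and 1346 with VPA and 1481, 1616 and 1587 with VPA+Rapamycin, and like GRIA2 it was higher in every VPA+Rapamycin library than in any VPA library. FRRS1L rose in VPA+Rapamycin against VPA by a log2 difference of 0.41 (SE 0.08, adjusted p = 0.00542 in edgeR), a call lost in the fit of all 9 libraries (0.197), and SHISA9 fell there by 0.38 (SE 0.10, adjusted p = 0.0279), a call lost in 5 alternatives, among them without VPA replicate 2 or 3 and without VPA+Rapamycin replicate 2 or 3 (adjusted p from 0.0706 to 0.144 in these 5). Against vehicle, 3 of 14 rose (CACNG7, CACNG8 and SHISA7) and 2 fell (CPT1C and PICK1) with VPA+Rapamycin, and CNIH3 also fell with the replicate block (adjusted p = 0.0347 in edgeR).

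Of 19 tested scaffolds and kinases of the postsynaptic density, 1 rose (DLGAP3) and 3 fell (DLG3 and DLG4 among them) in VPA against vehicle. DLG4, the scaffold PSD-95 to which NMDA receptors bind, had 2417, 1597 and 1601 reads in vehicle, 1017, 944 and 1084 with VPA and 973, 1249 and 1000 with VPA+Rapamycin. With VPA+Rapamycin against vehicle, DLGAP3 rose, and DLG4 and HOMER2 were among the 3 that fell. HOMER2, which links metabotropic receptors to calcium stores, was the only gene of the list to pass between VPA+Rapamycin and VPA, falling from 637, 542 and 575 reads to 363, 310 and 314, by 0.81 on the log2 scale (SE 0.11, adjusted p = 0.00022 in edgeR).

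The vesicular transporters that load glutamate went in opposite directions. SLC17A6 (VGLUT2), the main such transporter of spinal cord neurons, had 174, 199 and 468 reads in vehicle, 10, 7 and 9 with VPA and 31, 35 and 35 with VPA+Rapamycin. The 3 groups were far apart, and the log2 difference of VPA from vehicle was -5.08 (SE 0.45), or -4.49 without vehicle replicate 3. SLC17A6 rose in VPA+Rapamycin against VPA by a log2 difference of 1.97 (SE 0.42, adjusted p = 0.00865 in edgeR). This call was lost without VPA replicate 2 (adjusted p = 0.0548) and in the fit of all 9 libraries (0.0717). DESeq2 gave no adjusted p for the gene in that comparison and so did not call it. SLC17A6 fell by 3.11 on the log2 scale in VPA+Rapamycin against vehicle (SE 0.38, adjusted p = 0.00061 in edgeR). Relative to 1000 CPM of the 12 neuronal genes it was at 5.64, 5.41 and 8.88 in vehicle, 0.326, 0.256 and 0.293 with VPA and 1.00, 1.13 and 1.10 with VPA+Rapamycin.

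SLC17A7 (VGLUT1), the cortical counterpart, had 18, 7 and 34 reads in vehicle, 154, 132 and 142 with VPA and 72, 97 and 85 with VPA+Rapamycin. It was higher than vehicle in both treated groups, and it fell in VPA+Rapamycin against VPA by 0.73 on the log2 scale (SE 0.19, adjusted p = 0.0288 in edgeR). That call was lost in 6 alternatives, with adjusted p from 0.0552 to 0.331: the fit of all 9 libraries and those without VPA replicate 1, 2 or 3 or VPA+Rapamycin replicate 1 or 3. Of the 9 genes tested in this list, SLC1A1 (a neuronal glutamate uptake carrier) and SRR (which makes the co-agonist D-serine) also rose in VPA against vehicle. SLC1A1 went from 60, 38 and 41 reads in vehicle to 293, 254 and 297 with VPA and 238, 244 and 224 with VPA+Rapamycin, and differed from vehicle in the last by 2.29 on the log2 scale (SE 0.21, adjusted p = 0.000189 in edgeR). SLC1A3, the uptake carrier of radial glia, rose in VPA+Rapamycin against VPA by a log2 difference of 0.29 (SE 0.07, adjusted p = 0.0235 in edgeR), and this was lost without VPA replicate 1, 2 or 3, without VPA+Rapamycin replicate 3 and with all 9 libraries (adjusted p from 0.0648 to 0.230).

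REST, its partners and the RNA editing enzymes differed by less than 1 on the log2 scale in each comparison. REST had 1311, 1212 and 1472 reads in vehicle, 1164, 1099 and 1002 with VPA and 1213, 1075 and 1135 with VPA+Rapamycin. The VPA libraries lay a little below vehicle, with a log2 difference of -0.37 (SE 0.12) that passed in 5 of 12 alternatives, while VPA+Rapamycin differed from VPA by 0.09 (adjusted p = 0.618 in edgeR). ADARB1, the editor of GRIA2, had 207, 163 and 186 reads in vehicle, 225, 171 and 209 with VPA and 229, 181 and 238 with VPA+Rapamycin, and its log2 differences of 0.13 from VPA (adjusted p = 0.700) and 0.17 from vehicle (adjusted p = 0.532) in VPA+Rapamycin did not pass in edgeR. ADARB2, a relative without editing activity of its own, rose in VPA+Rapamycin against VPA by a log2 difference of 0.76 (SE 0.15, adjusted p = 0.00357 in edgeR), a call lost in the fit of all 9 libraries (0.0689). Of the 9 genes, 1 rose (HDAC1) and 3 fell (REST, RCOR1 and ADARB2) in VPA against vehicle. With the replicate block these 4 calls were lost (adjusted p from 0.0597 to 0.119 in edgeR). In this list 0 passed in VPA+Rapamycin against vehicle in edgeR and in DESeq2, with 3 lower and 0 higher at an unadjusted p under 0.05.

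**Figure D4:**
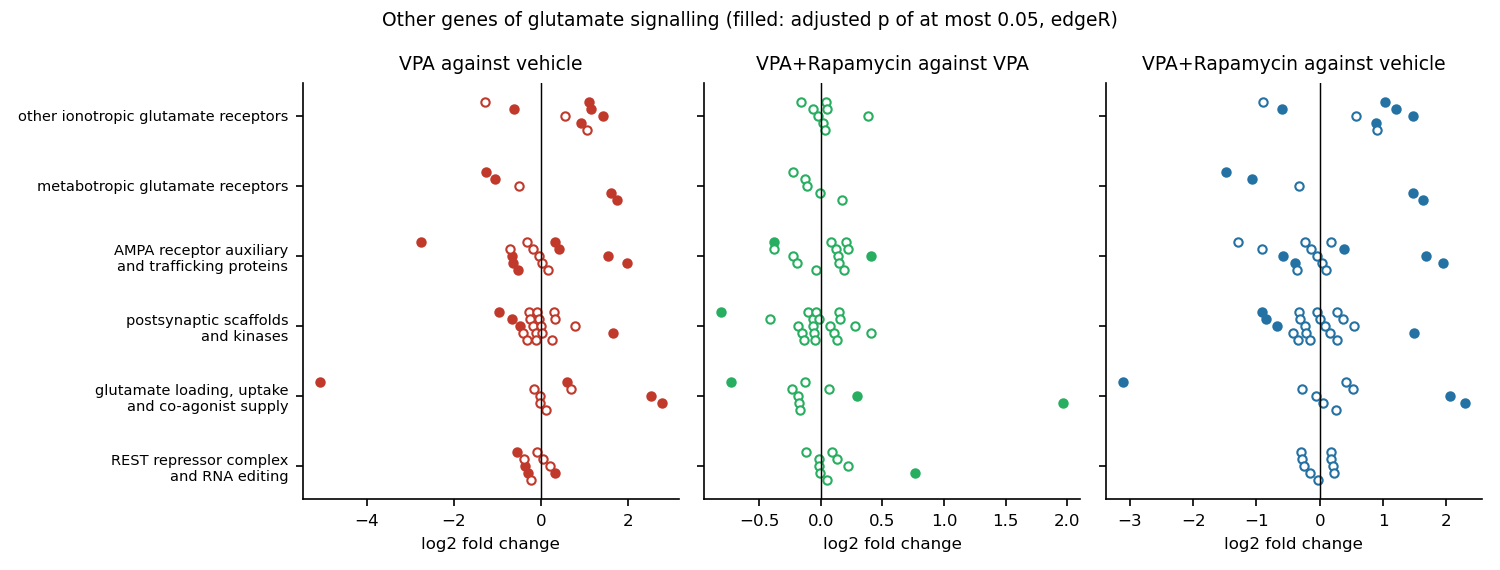
Log2 fold changes of the tested genes of the 6 further lists in each comparison, as points, filled where the adjusted p in edgeR was at most 0.05. The horizontal scale differs between the panels; SLC17A6 is the point at -5.08 on the left, at 1.97 in the middle and at -3.11 on the right.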

How the data were processed

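Spinal cord organoids of 3 conditions were measured by bulk RNA sequencing with 3 libraries each. Per the submitters' processing notes, the authors used HISAT2 2.0.5 and featureCounts 1.5.0-p3; the strand setting is not given in the sources used here, so reads of a gene and an antisense partner cannot be told apart. The deposited counts are reads per gene as the authors counted them, without normalization, in 3 tables of 2 conditions each, and exon lengths equal those of GENCODE 29 on GRCh38 for 99.98% of genes. The tables hold no gene with under 2 reads in all. Size-factor and FPKM columns, fold changes and p-values of the authors were not used.

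Each pair of conditions was fitted in its own table in R 4.3.3 with edgeR 4.0.16 (TMM, filterByExpr, quasi-likelihood F test, without a replicate block), with p adjusted by Benjamini and Hochberg over all genes and a threshold of 0.05. A standard error is the log2 fold change over the root of F. CPM and RPKM values use TMM factors over 9 libraries and the deposited lengths; shares divide a gene by its family. Alternatives were DESeq2 1.42.0, its size factors, upper-quartile normalization, no filter, all 9 libraries together, the replicate number as a block, shares without lengths, and leaving out each library. Same-numbered libraries share a name (C4, C5 or C6) and were taken to share a clone, which the study does not state. Their deviations from the group means correlated weakly, at 0.0544, 0.0364 and -0.0595 for VPA with vehicle. The correlations were 0.0793, -0.0279 and 0.0289 for VPA+Rapamycin with VPA, and 0.0949, 0.0628 and 0.159 for VPA+Rapamycin with vehicle. The fit was tested on simulated data. Depth was 15290299 to 17417338 reads, and limits from counts cover counting error only.

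The members and lists were chosen with earlier results of these data known. The rule for named genes took all members, the 5 genes most alike GRIN2B and GRIA2, and in each comparison the up to 4 raised and 4 lowered list genes with the smallest adjusted p of those passing, plus REST and ADARB1. Other list genes and markers that passed or changed with the block, GFAP, AQP4, CSPG4, MBP and TFAP2B are named after their values were seen. Promoter windows were taken from RefSeq (GRCh38.p14). Some list genes are not reported here by name.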

Additional observations from a re-analysis of the deposited data

How the results depend on the processing

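Most results kept their direction and their side of the threshold. The count of members passing in VPA against vehicle was 4, and 4 to 5 without a library. In VPA+Rapamycin against VPA it was 1 in every alternative except all 9 libraries in a single fit, which gave 0; over all genes that fit called 44 rising and 69 falling, against 522 and 646. In VPA+Rapamycin against vehicle it was 3, and from 1 (without VPA+Rapamycin replicate 2) to 5 (without vehicle replicate 3). The 7 further glutamate genes passing in VPA+Rapamycin against VPA became 1 with all 9 libraries and 3 to 6 when a library was left out. Without division by gene length the share of GRIA2 was 43.5% in vehicle and 27.4% in VPA+Rapamycin, and that of GRIN2B 7.16%, 45.8% and 39.5%. The cause of the differences between the counts of passing genes was not tested.

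With the replicate block, 5 members passed in VPA+Rapamycin against vehicle, adding GRIA4 (adjusted p = 0.0386 in edgeR) and GRIN2D (0.0499), and the log2 difference of GRIN2A was 0.00228. Beside the calls given in the report, the block changed those of OLIG2 in VPA against vehicle and in VPA+Rapamycin against VPA and of PAX3 in the latter, and no other call among the genes reported by name.

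Signs turned only for differences that did not pass. Leaving out each library in turn, the log2 difference of ADARB1 in VPA against vehicle ran from -0.038 (without VPA replicate 1) to 0.13, and was -0.003 without vehicle replicate 2. In that comparison GRIA3 turned to 0.047 and 0.089 without vehicle replicate 2 or 3, and GRIN2A to 0.15 and 0.033 without vehicle replicate 3 or VPA replicate 3. Between VPA+Rapamycin and VPA, GRIN1 ran from -0.20 (without VPA+Rapamycin replicate 2) to 0.44, GRIN2A from -0.046 (without VPA replicate 3) to 0.13, with -0.02 without VPA+Rapamycin replicate 3, and GRIN2C from -0.21 (without VPA+Rapamycin replicate 1) to 0.42. Between VPA+Rapamycin and vehicle, GRIA3 ran from -0.14 (without vehicle replicate 1) to 0.22, with -0.041 without VPA+Rapamycin replicate 3, and GRIN2A from -0.15 to 0.17 (without vehicle replicate 3), with 0.061 without VPA+Rapamycin replicate 2. GRIN2A was at 0.017 with upper-quartile normalization. GRIN1, GRIN2C and GRIN3A had 0 to 52 reads in a library, which limits what could be detected for them.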
